A study of Mus musculus with 8 samples.

Results

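Matrix metalloproteases (MMPs), the ADAM and ADAMTS metalloproteases and the tissue inhibitors of metalloproteases (TIMPs) were followed in tumor endothelial cells (TECs) of the mouse lung. The genes were taken by their symbols: Mmp or Adam with a number and at most an added a or b, Adamts with a number, and Timp1 to Timp4. This gave 79 of the 33641 gene symbols in the data, of which 23 were MMP, 33 ADAM, 19 ADAMTS and 4 TIMP genes.

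The RNA-seq libraries came from CD45-CD31+ cells sorted by FACS from Lewis lung carcinoma (LLC) tumors, 4 from control mice and 4 from endFoxf1+/- mice. LLC is a mouse lung tumor line, and its cells had been injected into the left lung lobe of young adult C57Bl/6-background mice 21 days before the tumors were microdissected. In endFoxf1+/- mice, tamoxifen activated a Cre recombinase driven by the Pdgfb promoter, which deleted exon 1 of 1 Foxf1 allele in Pdgfb-expressing endothelium and left the other allele intact. The paper also describes tamoxifen-treated control mice, but its RNA-seq methods do not state whether the controls of these libraries received tamoxifen. The control group is named only as control in the labels, and the methods describe both wild-type C57Bl/6 mice and littermates with only the floxed allele or only the Cre as controls of the tumor models, so the exact control genotype of these libraries is not given in the sources used here. The control libraries are called C1 to C4 and the endFoxf1+/- libraries H1 to H4. Nothing in the labels says whether cells of several mice were pooled, so p-values measure the spread between these libraries only.

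MMPs, ADAMs and ADAMTS enzymes are zinc proteases made as inactive precursors. MMPs mostly cut collagens, basement membrane and other matrix, ADAMs release the outer parts of membrane proteins such as growth factors, cytokines and receptors, and ADAMTS enzymes trim proteoglycans, procollagens, fibrillin-rich matrix and von Willebrand factor. TIMPs bind the active site of these enzymes and block them. In blood vessels, this system is known for opening the basement membrane during sprouting and for cleaving adhesion and junction proteins of the endothelial surface.

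The levels are TPM, the transcript abundance per length scaled to the same total in every library, so genes can be compared with each other. TPM keep no read number, and the depth of the libraries is unknown. Foxf1 itself was 281 ± 49.5 TPM in control and 125 ± 84.6 TPM in endFoxf1+/- libraries (SD, n = 4 each). The difference on the log2(TPM + 1) scale was -1.68 (two-sided, exact permutation over 70 assignments of libraries, p = 0.0286, which is the lowest possible), and without library H3 it was -0.83 (exact permutation p = 0.0571).

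Library H3 stood apart from the others and carried few endothelial transcripts. The summed TPM of 20 endothelial markers was 10643 to 13442 in the controls, 12692 in H1, 12987 in H2, 6665 in H4 and 635 in H3, or 5.09% of the control mean in H3 and 53.4% in H4. Each of the 20 markers was lower in H3 than in every control. The median correlation of log2 levels with the other libraries was 0.795 for H3, 0.892 for H4 and 0.958 to 0.968 for the rest. Ptprc, which encodes the CD45 used to exclude leukocytes in the sort, reached 91.2 TPM in H3 against 2.94 to 9.13 TPM in the controls. H4 also differed from the rest, with 21.8% of its TPM in the gene Gm20594 against 5.11 to 11.3% in the other 7 libraries, and with 23 of the 79 members listed at 0 against 17 to 20. In libraries of sorted cells, fewer cells of a type and less RNA per cell cannot be told apart. Therefore, log2 fold changes and counts of called genes are given with and without H3.

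**Figure D1:**
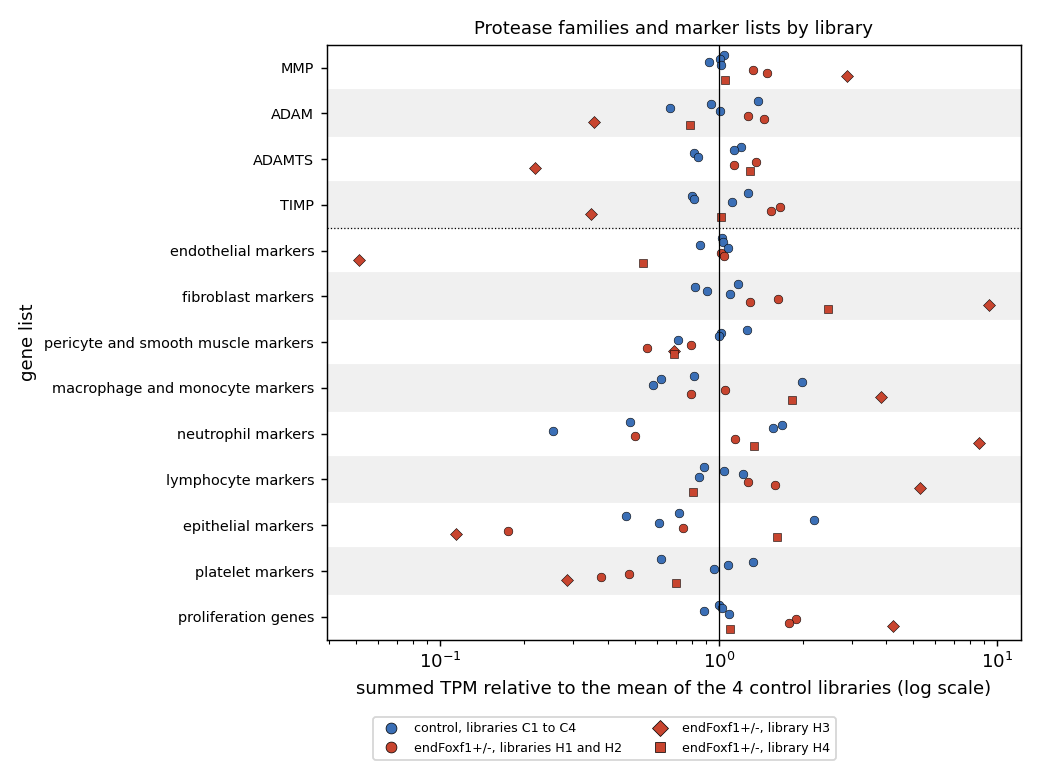
Summed TPM of the 4 protease families, of marker lists for 8 cell types and of proliferation genes in each library (points), divided by the mean of the 4 control libraries (vertical line, log axis). Library H3 (diamonds) sat at 0.0509 of the control mean for endothelial markers and at 9.34 for fibroblast markers, and the MMP sum was above the controls in all 4 endFoxf1+/- libraries.

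Of the 79 genes, 34 reached at least 1 TPM in at least 4 libraries and were tested (9 MMP, 13 ADAM, 9 ADAMTS and 3 TIMP genes). A further 29 were above 0 in some library but did not pass this filter, and 16 were listed at 0 in all 8 libraries. The genes at 0 were 12 ADAMs (Adam2, Adam6a, Adam6b, Adam18, Adam20, Adam24, Adam25, Adam26a, Adam26b, Adam29, Adam34 and Adam39), most of them known from testis, the collagenases Mmp1a and Mmp1b, the matrilysin Mmp7, and Adamts19. All 9 ADAMs classed as sheddases of body tissues were tested, against 2 of the 21 classed as testis ADAMs.

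A few genes supplied most of the transcripts. In the control libraries Adam15 was highest at 435 ± 159 TPM, followed by Timp3 at 340 ± 108, Timp2 at 212 ± 28.1 and Adamts1 at 205 ± 57.2 TPM (SD, n = 4). The control ranges of Adam15 and Timp3 overlapped, as did those of Timp2 and Adamts1, whereas the lowest Timp3 value (253 TPM) lay above the highest Timp2 value (242 TPM). Adamts9 (45.7 ± 3.99 TPM) and Adam10 (42.5 ± 5.15 TPM) came next and overlapped each other. In all, 16 genes had a mean of at least 10 TPM over the 8 libraries.

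**Figure D2:**
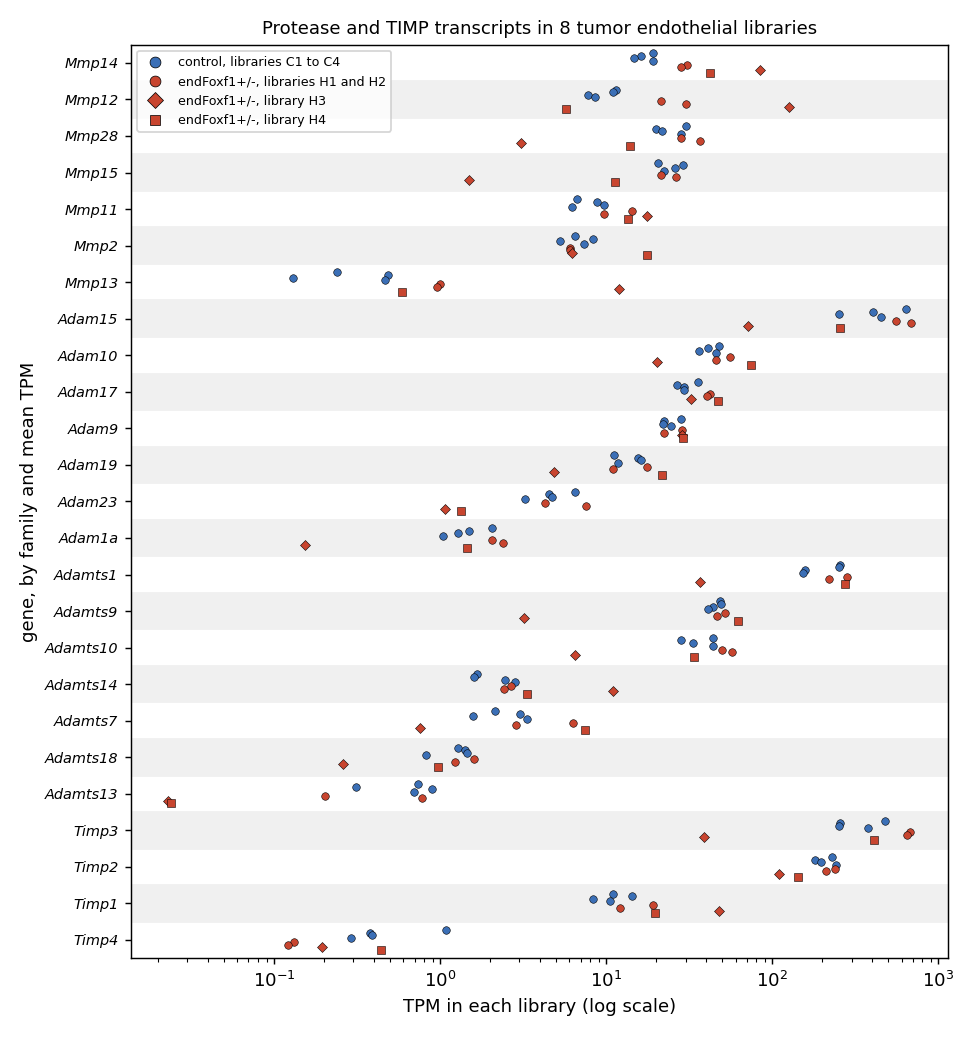
TPM (log axis) of 25 protease and TIMP genes in each of 8 libraries, grouped by family and ordered by mean TPM; blue points are control and red symbols endFoxf1+/- libraries. Mmp14, Mmp11 and Mmp13 have all red symbols to the right of the blue ones, while library H3 (diamonds) is the lowest for most of the abundant ADAM, ADAMTS and TIMP genes.

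The groups were compared with limma over all 14964 genes that passed the filter. No gene had an adjusted p under 0.05 (0% of all tested genes, and 0 of the 34 members), with or without H3. At an unadjusted p under 0.05, 3 of the 34 members were higher in endFoxf1+/- TECs (Mmp14, Mmp11 and Timp1) and 0 were lower, beside 2.82% of all genes higher and 2.77% lower. The 4 endFoxf1+/- values lay above all 4 control values for 2 members, Mmp14 and Mmp11, and below them for 0, beside 2.73% and 2.31% of all genes. Without H3, 7 members were higher at an unadjusted p under 0.05 (Mmp14, Mmp11, Timp1, Timp3, Adam17, Adamts4 and Adamts7) and 0 lower, beside 4.81% and 2.35% of the 14794 genes then tested. The groups then did not overlap for 4 members, all higher (Mmp14, Mmp11, Adam17 and Adamts4), beside 6.46% of all genes higher and 2.62% lower. No gene had an adjusted p under 0.05 in this fit either (0% of 14794).

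The median log2 fold change of the 34 members was -0.13, with 15 above and 19 below 0, beside a median of -0.17 over all tested genes. Without H3 it was 0.23, with 25 above and 9 below 0, beside a median of 0.01 over all genes. The members' median was also above 0 without C1 (0.0376), with no filter on low values (0.0372), after quantile normalization (0.0689) and under median ratio scaling (0.0037). Of the 34 members, H3 was above every control for 9 and below every control for 20, compared with 16.8% and 68.2% of all genes. H1 was above every control for 19 members and below for 1, beside 35.8% and 10.4% of all genes. H2 was above for 16 and below for 2, beside 34.9% and 12.5%, and H4 above for 14 and below for 11, beside 24.2% and 49.4%.

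**Figure D3:**
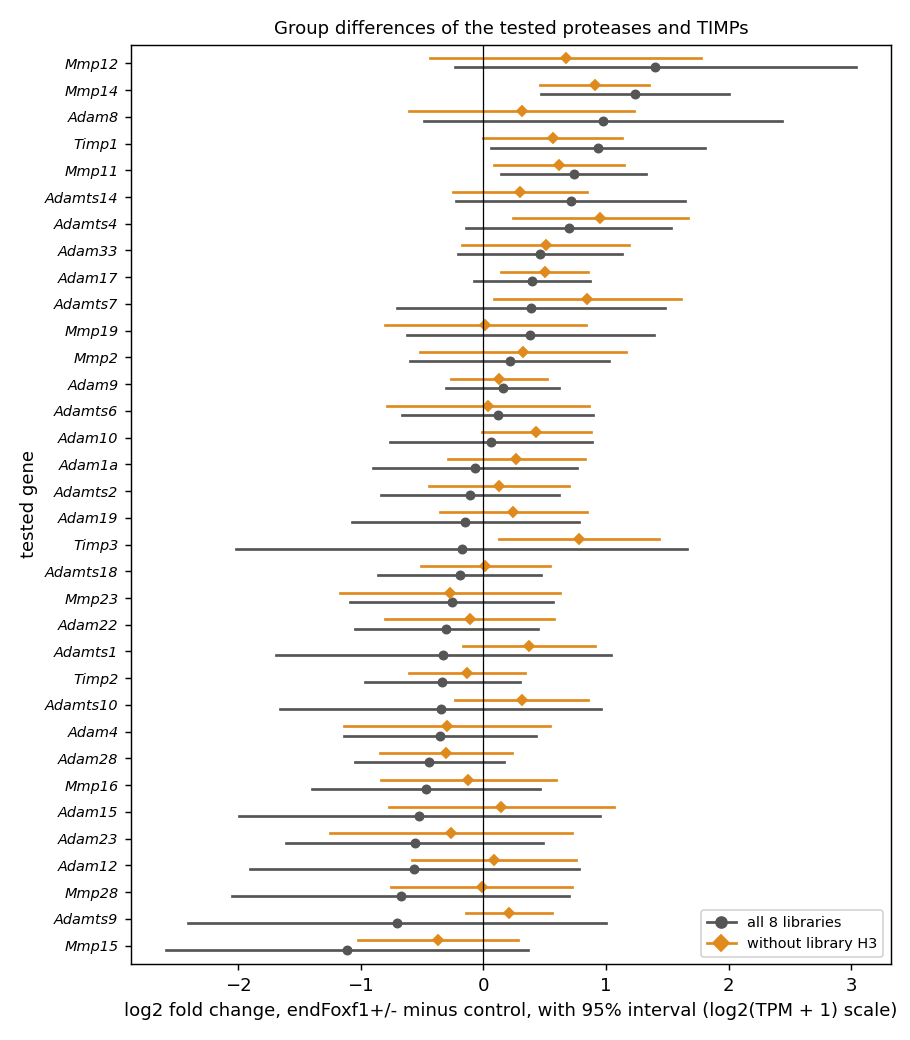
Log2 fold change (endFoxf1+/- minus control, log2(TPM + 1) scale) with its 95% interval for the 34 tested genes, ordered by the value over all 8 libraries (grey circles) and shown again without library H3 (orange diamonds). The interval lay above 0 with all libraries for Mmp14, Timp1 and Mmp11, and most orange diamonds below the middle of the plot lie to the right of the grey circles.

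Among the membrane-type MMPs, Mmp14 was higher in endFoxf1+/- TECs and had the smallest unadjusted p of the 34 members. Its product is a membrane-anchored collagenase that also activates pro-MMP2 at the cell surface, and the gene lies at chr14:54431598-54442456 (GRCm38.p6). Mmp14 was 19.2, 16.2, 14.7 and 19.2 TPM in C1 to C4 and 30.7, 28.3, 84.1 and 42.1 TPM in H1 to H4. Every endFoxf1+/- library was above every control, and H3 was the highest. The log2 fold change was 1.24 (95% interval 0.474 to 2.002, adjusted p = 0.790, limma). Without H3, the endFoxf1+/- mean was 33.7 ± 7.35 TPM (SD, n = 3) against 17.3 ± 2.26 TPM in controls, or 1.95 times as high, and the log2 fold change was 0.91 (0.47 to 1.35, adjusted p = 0.407). Mmp14 had an unadjusted p under 0.05 in all 18 fits that were run.

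Mmp15 and Mmp16, the other membrane-type MMPs tested, and the similarly abundant Mmp28 had lower mean levels in endFoxf1+/- libraries. Mmp15 was 20.4 to 28.9 TPM in controls and 21.2, 26.4, 1.49 and 11.2 TPM in H1 to H4. H1 and H2 were within the control range and H3 and H4 below it, and the log2 fold change was -1.11, or -0.37 without H3. Mmp16, also membrane-type and named after its values were seen, was 3.33 to 5.28 TPM in controls and 4.26, 5.51, 0.79 and 1.93 TPM in H1 to H4, with a log2 fold change of -0.47 (-0.12 without H3). Mmp28, a secreted MMP also called epilysin, was 19.9 to 30.4 TPM in controls and 28.3, 36.7, 3.08 and 13.8 TPM in H1 to H4, with a log2 fold change of -0.67 that shrank to -0.01 without H3. For Mmp15, Mmp16 and Mmp28, H3 and H4 were below every control, as were 68.2% of all genes in H3 and 49.4% in H4, and the part of the endothelial content in these values was not tested. The remaining membrane-type genes, Mmp17, Mmp24 and Mmp25, did not pass the filter and were named after their values were seen. Mmp25 was 0.25 to 0.53 TPM in controls and 0.58, 0.23, 1.48 and 0.85 TPM in H1 to H4, so all but H2 were above every control. Mmp17 was 0.60 to 0.92 TPM in controls and 1.07, 1.10, 0.29 and 0.37 TPM in H1 to H4. Mmp24 was 0.36 to 0.93 TPM in controls and 1.01, 0.44, 0.21 and 1.36 TPM in H1 to H4.

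Mmp11, or stromelysin-3, is a secreted MMP known from tumor stroma that is activated inside the cell by furin (chr10:75923221-75932502). Its levels were 6.66, 8.80, 9.64 and 6.18 TPM in C1 to C4 and 14.3, 9.73, 17.5 and 13.6 TPM in H1 to H4. The groups did not overlap, but H2 was only just above the highest control, C3. The log2 fold change was 0.74 (0.14 to 1.33, adjusted p = 0.790, limma), and 0.62 without H3. Mmp2, the gelatinase that Mmp14 activates, was 5.25 to 8.35 TPM in controls and 6.04, 6.03, 6.20 and 17.5 TPM in H1 to H4. Only H4 was above the control range, and the log2 fold change was 0.21 (-0.59 to 1.02, adjusted p = 0.868, limma), with 0.32 when H3 was left out and -0.13 when H4 was. Mmp19, which cleaves basement membrane proteins and was named after its values were seen, was 6.18 to 7.74 TPM in controls and 9.92, 10.3, 21.0 and 3.15 TPM in H1 to H4, above the controls in 3 libraries and below them in H4. Its log2 fold change was 0.38 (0.0173 without H3 and 0.82 without H4).

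Summed over all 23 genes, MMP transcripts were 100.6 to 113.5 TPM in controls and 145, 162, 316 and 115 TPM in H1 to H4. The groups did not overlap, although H4 exceeded the highest control by little. Markers of other cells did not all move with these values. The 10 fibroblast markers, none of them at 0 in any library, summed to 128 to 182 TPM in controls and 255, 201, 1452 and 385 TPM in H1 to H4. H4 came next after H3 for them, but was the lowest endFoxf1+/- library for the MMP sum. Among the fibroblast markers, Col3a1, Dcn, Lum and Dpt were higher in each endFoxf1+/- library than in every control, and Postn was lower. The 10 proliferation genes summed to 82.8 to 102 TPM in controls and 103 to 395 TPM in endFoxf1+/- libraries. The 10 pericyte and smooth muscle markers summed to 38.0 to 67.0 TPM in controls and 29.4 to 42.1 TPM in endFoxf1+/- libraries. Their part in the Mmp14 and Mmp11 values was not tested.

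A second group of MMPs was high in H3. Mmp12, the metalloelastase known from macrophages, is 1 of 10 MMP genes that lie next to each other over 427 kb at chr9:7272514-7699585. Mmp12 was 11.4, 10.9, 7.73 and 8.52 TPM in C1 to C4 and 21.4, 30.3, 127 and 5.72 TPM in H1 to H4. H1, H2 and H3 were above every control and H4 was below every control. H3 was at 13.1 times the control mean, and the log2 fold change was 1.40 (-0.23 to 3.04, adjusted p = 0.790, limma), with 0.67 when H3 was left out and 2.09 when H4 was. The summed TPM of the cluster was 8.58 to 12.4 in controls, 24.1 in H1, 33.4 in H2, 154 in H3 and 7.02 in H4.

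The neighbours of Mmp12 did not pass the filter and have no test. Mmp13, a collagenase, was 0.24, 0.49, 0.13 and 0.47 TPM in C1 to C4 and 1.002, 0.95, 11.9 and 0.59 TPM in H1 to H4. Its groups did not overlap, and H3 was 36.1 times the control mean. The stromelysin Mmp3 was 0.10 to 0.55 TPM in controls, 0.86 TPM in H1 and H2, 7.89 TPM in H3 and 0.18 TPM in H4. Mmp8, known as the neutrophil collagenase, was 0.21 to 0.64 TPM in controls and 6.64 TPM in H3, with the other endFoxf1+/- libraries between 0.10 and 0.42 TPM. Mmp10 reached 0.82 TPM in H3 and 0.57 TPM in H2 and was at or below 0.31 TPM elsewhere. Mmp27 and Mmp20 stayed at or below 0.43 TPM, and Mmp1a, Mmp1b and Mmp7 were listed at 0. Mmp9, the other gelatinase, lies outside the cluster on chromosome 2 and was 0.23 to 1.63 TPM in controls and 0.89, 0.42, 23.8 and 1.28 TPM in H1 to H4. Mmp3, Mmp8, Mmp9 and Mmp10 were named after their values were seen.

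**Figure D4:**
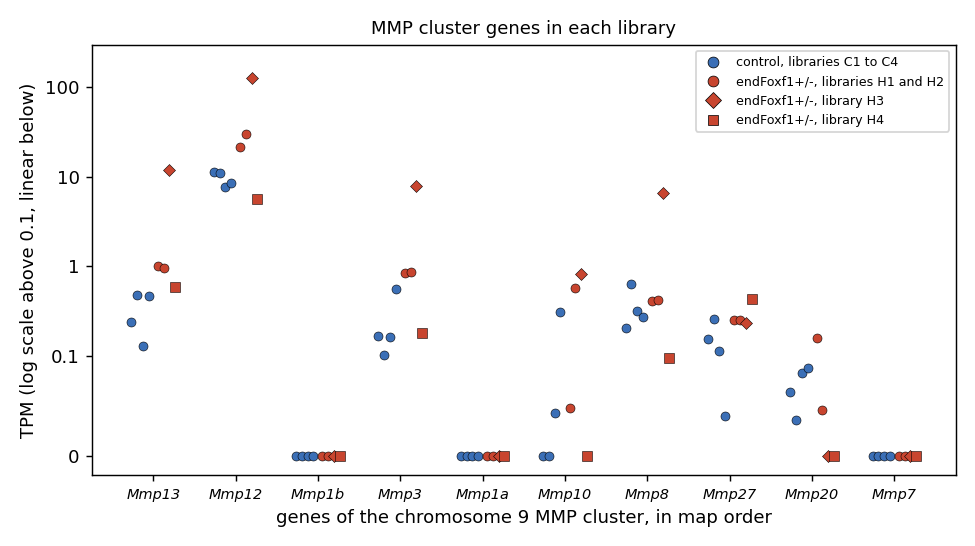
TPM of the 10 MMP genes of the chromosome 9 cluster in each library, in map order (vertical axis logarithmic above 0.1 TPM and linear below). Library H3 (diamonds) was highest for Mmp13, Mmp12, Mmp3, Mmp10 and Mmp8, and Mmp1b, Mmp1a and Mmp7 were at 0 in all 8 libraries.

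Myeloid markers were also high in H3. The 10 macrophage and monocyte markers, none of them at 0, summed to 1526 to 5210 TPM in controls and 2083 to 10017 TPM in endFoxf1+/- libraries, and all 10 were higher in H3 than in every control. The 10 neutrophil markers summed to 12.7 to 84.8 TPM in controls and 25.0 to 431 TPM in endFoxf1+/- libraries. Of these, 6 were above every control in H3, and Ngp was at 0 there. The 8 lymphocyte markers summed to 17.9 to 25.7 TPM in controls and 17.0 to 111 TPM in endFoxf1+/- libraries. Their part in the values of Mmp12, Mmp13, Mmp3, Mmp8 and Mmp9 was not tested. The same holds for the 10 epithelial markers (6081 to 28894 TPM in controls, 1491 to 21207 TPM in endFoxf1+/- libraries) and the 6 platelet markers (749 to 1602 and 344 to 846 TPM).

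Promoter letters were compared because 5 of the 10 cluster genes (Mmp13, Mmp12, Mmp3, Mmp10 and Mmp8) had their highest level in H3. RefSeq promoter windows (GRCm38.p6, 250 bases before to 50 after the start) were found for 49 of the 79 genes. The AP-1 site, TGAGTCA on either strand, was in the window of 7 of the 10 cluster genes (all but Mmp8, Mmp27 and Mmp20), in 3 of the 39 other members with a window (Adam19, Adam1b and Adam29) and in 5.95% of all genes with one. Mmp8, high in H3, thus lacked these letters, and Mmp1b, Mmp1a and Mmp7, at 0, had them. TATAAA was in 9 of the 10 cluster genes and 15.7% of all genes. The sites of the 4 cluster genes that were highest in H3 and held the letters are shown 5′ to 3′ on the gene's strand, with the AP-1 letters in capitals (TGACTCA is the same site read on the other strand). They lie on the + strand at chr9:7272468-7272496, chr9:7347319-7347347, chr9:7445765-7445793 and chr9:7502268-7502296, and begin 35, 44, 46 and 63 bases before the transcription start of that window. Mmp12 has 2 such windows, and the letters were only in the one for the start at 7347374, which lies within the gene (chr9:7344397-7360461). Counted by window, 7 of the 12 cluster windows held them.
Mmp13: ccccaaagtggTGACTCAtcactatcatg
Mmp12: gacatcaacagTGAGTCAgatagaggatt
Mmp3: ggaagcaattaTGAGTCAgttttcgggtg
Mmp10: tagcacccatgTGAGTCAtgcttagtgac

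FOXF1 belongs to the forkhead factors, whose shared core letters GTAAACA were searched in the same windows on either strand. They were in 5 of the 49 members with a window (Mmp13, Mmp10, Adam8, Adam19 and Adamts13) and in 4.05% of all genes. Mmp14, Mmp11, Timp1 and Adam17 had a window without them. The matches upstream of the start of their window are shown with the forkhead letters in capitals (TGTTTAC is the other strand), at chr9:7272422-7272450 (+), chr9:7502132-7502160 (+), chr7:139992749-139992777 (-) and chr11:46054316-46054344 (+). The Adam8 window is for a start at 139992562, and its match lies within the gene (chr7:139978932-139995207). A match in these letters is a description and was not tested for binding.
Mmp13: ccatgtaagcaTGTTTACcttcgcctcac
Mmp10: ttttcctctttGTAAACAcagaagccaca
Adam8: tcaaattggtcTGTTTACcatctccatct
Adam19: gaagacacagtTGTTTACaaacgaataga

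Among the ADAM sheddases, Adam15 was the most abundant. It encodes a membrane metalloprotease found at endothelial junctions (chr3:89339640-89350028). Its levels were 638, 402, 252 and 448 TPM in C1 to C4 and 552, 681, 70.8 and 254 TPM in H1 to H4. Only H3 was below the control range and only H2 above it, and the log2 fold change was -0.52 (-1.99 to 0.95, adjusted p = 0.831, limma), or 0.15 without H3. Adam15 made up 65.9 to 80.7% of all ADAM transcripts in controls and 34.6 to 81.9% in endFoxf1+/- libraries. The summed ADAM transcripts were 383 to 790 TPM in controls and 205 to 832 TPM in endFoxf1+/- libraries.

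Adam17 and Adam10, the main sheddases of cytokines, growth factors, Notch and VE-cadherin, were expressed in every library. Adam17 was 35.9, 26.7, 29.3 and 29.2 TPM in C1 to C4 and 41.9, 40.2, 32.2 and 47.1 TPM in H1 to H4. H1, H2 and H4 were above every control, and H3 was within their range. The log2 fold change was 0.40 (-0.07 to 0.87, adjusted p = 0.790, limma), and 0.50 (0.14 to 0.86, adjusted p = 0.580) without H3. Adam10 was 47.4, 40.7, 36.0 and 45.7 TPM in C1 to C4 and 55.7, 45.6, 20.1 and 74.2 TPM in H1 to H4. It was above the controls in H1 and H4, within them in H2 and below them in H3, with a log2 fold change of 0.07 (0.43 without H3). Its direction turned without H4 (-0.18), without H1 (-0.0429) and without C3 (-0.00889). Adam9, another sheddase, was 21.9 to 28.1 TPM in controls and 22.2 to 29.0 TPM in endFoxf1+/- libraries, which overlapped. Its log2 fold change was 0.16 (0.13 without H3).

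Of the less abundant ADAMs, Adam19 was 11.1 to 16.1 TPM in controls and 17.5, 10.9, 4.81 and 21.7 TPM in H1 to H4, on both sides of the control range, with a log2 fold change of -0.15 (0.24 without H3). Adam8, a sheddase known from myeloid cells, was 2.01 to 7.18 TPM in controls and 8.44, 6.07, 41.4 and 3.46 TPM in H1 to H4. H3 was 8.70 times the control mean, and the log2 fold change of 0.98 became 0.31 without H3. Adam12 went the other way in H3, at 0.41 TPM against 5.45 to 9.46 TPM in controls and 5.02 to 11.03 TPM in the other endFoxf1+/- libraries, and its log2 fold change was -0.56 (0.0882 without H3). Adam8 and Adam12 were named after their values were seen. Adam23, a neural ADAM without a catalytic motif, was 3.26 to 6.50 TPM in controls and 4.25, 7.52, 1.06 and 1.32 TPM in H1 to H4, low in H3 and H4, with a log2 fold change of -0.56 (-0.26 without H3). Adam1a, known from testis, was 1.04 to 2.06 TPM in controls and 0.15 to 2.40 TPM in endFoxf1+/- libraries, with a log2 fold change of -0.0680 (0.27 without H3). Of the 13 ADAMs tested, 5 had a log2 fold change above 0, and 9 did without H3. Over all genes, 4782 of 14964 were above 0 with all libraries and 7637 of 14794 without H3, so the number above 0 also grew over all genes.

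ADAMTS transcripts were dominated by Adamts1, a proteoglycan-cleaving enzyme also known to bind VEGF (chr16:85793827-85803113). Adamts1 was 256, 253, 157 and 153 TPM in C1 to C4 and 281, 220.4, 36.5 and 276 TPM in H1 to H4. H1 and H4 were above every control, H2 was within them, and H3 was at 0.178 of their mean. The log2 fold change was -0.32 (-1.69 to 1.04, adjusted p = 0.881, limma), or 0.37 without H3. Adamts9, which cleaves versican and aggrecan, was 40.7 to 49.4 TPM in controls and 51.8, 46.5, 3.21 and 61.7 TPM in H1 to H4, with a log2 fold change of -0.71 (0.21 without H3). Adamts10, which acts on fibrillin microfibrils, was 28.1 to 44.1 TPM in controls and 49.9, 56.9, 6.48 and 33.9 TPM in H1 to H4, with a log2 fold change of -0.35 (0.31 without H3). Thus H3 was far below the control range for each of these abundant ADAMTS genes, and the other endFoxf1+/- libraries were within it or above it.

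Adamts4, an aggrecanase named after its values were seen, was 3.91, 2.58, 1.38 and 3.82 TPM in C1 to C4 and 7.59, 4.82, 2.55 and 6.81 TPM in H1 to H4. All but H3 were above every control, with a log2 fold change of 0.70, or 0.96 (0.24 to 1.67, adjusted p = 0.603, limma) without H3. Adamts7, which cleaves cartilage oligomeric matrix protein, was 1.57 to 3.35 TPM in controls and 6.27, 2.88, 0.76 and 7.44 TPM in H1 to H4, so H2 was within the control range. Its log2 fold change was 0.39, and 0.85 (0.08 to 1.61, adjusted p = 0.685, limma) without H3, 0.16 without H1 and 0.0912 without H4. Adamts14, a procollagen peptidase, was high in H3 at 10.98 TPM against 1.61 to 2.80 TPM in controls and 2.44 to 3.34 TPM in the other endFoxf1+/- libraries, and its log2 fold change was 0.71 (0.30 without H3). Adamts18 was 0.82 to 1.46 TPM in controls and 0.26 to 1.60 TPM in endFoxf1+/- libraries, with a log2 fold change of -0.19 (0.0171 without H3). Adamts13, which cleaves von Willebrand factor, did not pass the filter, at 0.31 to 0.90 TPM in controls and 0.20, 0.78, 0.02 and 0.02 TPM in H1 to H4. Of the 9 ADAMTS genes tested, 4 had a log2 fold change above 0 with all libraries and 9 did without H3, beside the counts over all genes given for the ADAMs. The median over the 9 was then 0.30 beside 0.01 over all genes.

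The TIMPs differed from each other. Timp1, a secreted inhibitor induced in inflamed tissue (chrX:20870166-20874737), was 10.99, 14.4, 8.31 and 10.6 TPM in C1 to C4 and 19.1, 12.1, 47.8 and 19.6 TPM in H1 to H4. H1, H3 and H4 were above every control, and H2 was within their range. The log2 fold change was 0.93 (0.06 to 1.81, adjusted p = 0.790, limma), and 0.57 without H3. The summed fibroblast and macrophage markers, given above, were highest in H3 as Timp1 was, although 4 of the 10 fibroblast markers (Col1a2, Fap, Postn and Thy1) were below every control there. Their part in the Timp1 values was not tested.

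Timp3, a matrix-bound inhibitor that also blocks ADAM17 and VEGF signaling, was 477, 255, 253 and 376 TPM in C1 to C4 and 677, 647, 38.6 and 411 TPM in H1 to H4. H1 and H2 were above every control, H4 was within them, and H3 was 8.81 times below their mean. The log2 fold change was -0.18 (-2.01 to 1.66, adjusted p = 0.957, limma), and turned to 0.78 (0.13 to 1.43, adjusted p = 0.655) without H3. Timp2, which also takes part in the activation of pro-MMP2 by MMP14, was 229, 181, 197 and 242 TPM in C1 to C4 and 237, 210.4, 110.0 and 142 TPM in H1 to H4. H3 and H4 were below every control, and the log2 fold change was -0.33 (-0.97 to 0.30, adjusted p = 0.797, limma), or -0.13 without H3. Timp4 did not pass the filter and stayed at or below 1.08 TPM.

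Genes that act with these proteases were taken from lists of activators and inhibitors, ADAMTS-like proteins, shed membrane proteins and matrix substrates. Of 22 tested activators, inhibitors and partners, 1 was higher and 1 lower at an unadjusted p under 0.05, beside 2.82% and 2.77% of all genes. Without H3, 2 were higher (Lrp1 and Plat) and 2 lower (Tspan17 and Rhbdf2), beside 4.81% and 2.35%. Lrp1, the endocytic receptor that clears protease and inhibitor complexes, was 3.12 to 5.02 TPM in controls and 9.11, 8.40, 61.7 and 37.1 TPM in H1 to H4, with a log2 fold change of 2.16 (1.65 without H3). Its order of H3, H4, H1 and H2 from high to low was also that of 5 of the 10 fibroblast markers. The summed macrophage and monocyte markers had it too (10017, 4818, 2774 and 2083 TPM), but only 1 of those 10 markers did. That marker was Lyz2, at 6870 TPM in H3 and 4476 TPM in H4. The part of these cells in the Lrp1 values was not tested. Tspan17, a tetraspanin partner of ADAM10, was 46.1 to 54.3 TPM in controls and 32.3, 44.5, 11.3 and 14.4 TPM in H1 to H4, with a log2 fold change of -1.18 (-0.87 without H3). Rhbdf2, named after its values were seen, is an inactive rhomboid that brings ADAM17 to the cell surface. It was 36.5 to 43.1 TPM in controls and 32.0, 31.0, 9.01 and 24.7 TPM in H1 to H4. Its groups did not overlap, as was so for 2.31% of all genes on the lower side. Plat, the tissue plasminogen activator, also named after its values were seen, was 38.6 to 83.8 TPM in controls and 98.2, 112, 17.7 and 77.4 TPM in H1 to H4, with a log2 fold change of 0.0695 (0.66 without H3). Of the 6 tested ADAMTS-like genes, 0 were higher or lower, with or without H3.

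Among 17 tested shed membrane proteins, 2 were higher (Procr and Tnfrsf1b) and 1 lower (Cx3cl1) at an unadjusted p under 0.05, beside 2.82% and 2.77% of all genes. Without H3, 16 were tested, and the same 3 genes were called, beside 4.81% of all genes higher and 2.35% lower. Procr, the endothelial protein C receptor, was 6.48 to 10.6 TPM in controls and 24.7, 14.7, 10.7 and 19.7 TPM in H1 to H4, with a log2 fold change of 1.03 (1.23 without H3). Tnfrsf1b, a TNF receptor shed by ADAM17, was 3.91 to 8.91 TPM in controls and 10.01, 7.76, 19.2 and 9.88 TPM in H1 to H4, with a log2 fold change of 0.89 (0.64 without H3). Cx3cl1, a membrane chemokine released by ADAM10 and ADAM17, was 34.04 to 50.9 TPM in controls and 35.0, 30.2, 2.23 and 16.5 TPM in H1 to H4, with a log2 fold change of -1.51 (-0.75 without H3).

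Of 8 tested matrix substrates, 3 were higher (Fn1, Vcan and Fbn1) and 1 lower (Vwf) at an unadjusted p under 0.05, beside the same shares of all genes. Without H3, 3 were higher (Fn1, Vcan and Col4a1) and 1 lower (Vwf), beside 4.81% of all genes higher and 2.35% lower. Thus Fbn1 lost the call and Col4a1 gained it. Fn1, which encodes fibronectin, was 32.8 to 52.3 TPM in controls and 135, 92.5, 811 and 265 TPM in H1 to H4, with a log2 fold change of 2.43 (1.82 without H3). Vcan, the proteoglycan versican that several ADAMTS enzymes cut, was 1.61 to 4.64 TPM in controls and 10.2, 6.52, 60.5 and 20.9 TPM in H1 to H4, with a log2 fold change of 2.30 (1.72 without H3). Fbn1, the microfibril protein fibrillin-1, was 4.37 to 6.84 TPM in controls and 8.96, 4.90, 19.4 and 14.98 TPM in H1 to H4, with a log2 fold change of 0.93 (0.67 without H3). Col4a1, a basement membrane collagen named after its values were seen, was 228 to 306 TPM in controls and 419.5, 359, 45.5 and 408 TPM in H1 to H4, with a log2 fold change of -0.25 (0.52 without H3). Vwf, the substrate of ADAMTS13, was 329 to 722 TPM in controls and 251, 338, 21.7 and 179 TPM in H1 to H4, with a log2 fold change of -2.02 (-1.16 without H3). Some markers of other cells moved with some of these substrates. Fn1 and Vcan ranked the endFoxf1+/- libraries H3, H4, H1 and H2 from high to low, as did the fibroblast markers Dcn (7.64 to 22.7 TPM in controls and 47.2, 36.6, 533 and 82.6 TPM in H1 to H4), Lum (2.45 to 7.10 TPM in controls and 21.4, 15.3, 183 and 39.7 TPM), Col3a1, Pdgfra and Dpt. The other 5 of the 10 fibroblast markers had another order, and of these Col1a2, Fap, Postn and Thy1 were lowest in H3. Vwf is itself 1 of the 20 endothelial markers. The part of these cells in the values was not tested. Of the tested genes of these lists, Lrp1, Procr, Fn1 and Vcan were higher without overlap between the groups, and Tspan17 and Rhbdf2 lower. This stands beside 2.73% of all genes higher and 2.31% lower without overlap. No gene of these lists had an adjusted p under 0.05. The median log2 fold changes were -0.26 for the activators, inhibitors and partners, -0.35 for the ADAMTS-like genes, 0.01 for the shed proteins and -0.33 for the matrix substrates, and without H3 they were -0.04, 0.10, -0.11 and 0.46.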

How the data were processed

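The authors deposited 1 TPM value per gene symbol and library, with the same sum in each library. The submitters' processing notes name TopHat, Cufflinks, Subread and DESeq2 with GRCm38 and mm10, without versions, and which tool gave the TPM is not given in the sources used here. The depth is unknown, so no counting interval was computed, and precision rests on 4 libraries per group. The read counts DESeq2 needs were not analysed here.

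The 79 members were found by symbol. Log2(TPM + 1) of genes with at least 1 TPM in at least 4 libraries was fitted with limma 3.58.1 (eBayes with trend) in R 4.3.3, with Benjamini-Hochberg adjustment over all tested genes and a threshold of 0.05. A pseudocount of 1 understates changes of low genes. For Foxf1, an exact permutation test (two-sided) of mean log2(TPM + 1) was used. The fit was tested on simulated data. Tables and plots were made with Python 3.11.15, pandas 2.3.3 and matplotlib 3.10.9.

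Named were the TIMPs, members with a mean of at least 10 TPM, tested members with an unadjusted p under 0.05 or groups that did not overlap, and the most abundant member of each role (25 genes). Other members, identified in the text, were chosen after their values were seen. The members, lists and library alternatives were chosen with earlier results of these data known. Coordinates and promoters came from RefSeq (GRCm38.p6), which held all 79 genes. Alternatives were pseudocounts of 0.1 and 5, no filter or a minimum of 5 TPM, quantile normalization, median ratio scaling, no trend, array weights, leaving out each library, and leaving out H3 and H4 together.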

Additional observations from a re-analysis of the deposited data

Results flagged for a closer look

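In each group of 4 libraries, the gap between the highest or lowest TPM and its nearest neighbour was compared with the range of the group, for Foxf1, the 25 members named by the rule and 12 chosen after their values were seen. A value was set apart by more than Dixon's 95% critical value in 5 of the 52 groups of the 25 members named by the rule and Foxf1. Chance sets apart about 1 in 20 groups, but this rate cannot be set against the 5, since the rule used the same values. Adamts14 was named over Adamts2 by a mean (3.49 against 2.47 TPM) that held its set-apart H3 value. Without H3, its means were lower than those of Adamts2 in endFoxf1+/- (2.82 against 2.85 TPM) and control libraries (2.13 against 2.55 TPM). The 12 members chosen after their values were seen gave 6 more, which are listed as values only, since that choice bears on how often they are set apart.

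Library H3 was set apart upward for 6 genes: Mmp9 (23.8 TPM), Mmp13 (11.9), Mmp3 (7.89), Mmp8 (6.64), Adam8 (41.4) and Adamts14 (10.98 TPM). All 10 macrophage and monocyte markers and the sum of the neutrophil markers were highest in H3, but only S100a8, S100a9, Csf3r and Ltf of the 10 neutrophil markers were, and Mpo and Ngp were below every control there. Their part was not tested. Mmp2 was set apart in H4, at 17.5 TPM against 6.03 to 6.20 in H1 to H3. Adam9 was set apart downward in H2, at 22.2 TPM against 28.5 to 29.0 in the others. In the controls, C1 was set apart for Timp4 (1.08 TPM), and C4 for Mmp3 (0.554 TPM) and Mmp10 (0.314 TPM), all low levels.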

How the results depend on the processing

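No paired analysis was possible because the labels tie no control library to an endFoxf1+/- library by a shared number, litter, batch or day. No member passed an adjusted p of 0.05 except under array weights, which gave 1 (Mmp14, adjusted p = 0.0348) with weights of 0.0643 for H3 and 0.178 for H4, a fit in which 148 of all 14964 genes passed. The count at an unadjusted p under 0.05 was 5 after quantile normalization (1050 of all genes), 12 with array weights (2866 of all genes) and 8 without H3 and H4 (1782 of 14578 genes), against 3 (836 of 14964 genes) as reported, and 1 to 7 when 1 library was left out. It fell to 1 (Mmp14) without C1 (538 of 14631 genes) or without C4 (468 of 14771) and was 5 without H2 (1589 of 14609), when Adam23 and Mmp15 were lower. The count of members whose groups did not overlap was 5 under median ratio scaling, 10 without H3 and H4, and 2 to 5 when 1 library was left out, beside 6.43%, 24.5% and 6.36 to 10.2% of all genes in the same fits (2 members and 5.04% as reported). The median log2 fold change of the members was 0.32 with array weights, 0.29 without H3 and H4, and -0.25 to 0.23 when 1 library was left out, the highest without H3. Of 18 fits, the main one included, an unadjusted p under 0.05 was reached by Mmp14 in 18, Mmp11 in 16, Timp1 in 10 and Adam17 in 6. Quantile normalization moved the median of all genes from -0.17 to -0.01, and median ratio scaling moved it to -0.02. Mmp14 was then 1.38 and 1.42, and Mmp11 0.87 and 0.91.

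The Foxf1 difference was -1.46 after quantile normalization (exact permutation p = 0.0571), -0.55 without H3 and H4 (exact permutation p = 0.0667, the smallest possible with 15 assignments), and -2.08 to -0.83 when 1 library was left out (exact permutation p = 0.0286 to 0.114).

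The direction turned in 31 of 236 other fits of 27 named members and in 15 of 216 that left out 1 library, and 12 of the members never turned. With array weights and without H3 and H4, in this order, the turned log2 fold changes were 0.48 and 0.57 for Adam15, 0.13 and 0.0401 for Adam19, 0.38 and 0.40 for Adam1a, 0.11 and 0.25 for Adam23, 0.35 and 0.32 for Adamts1, 0.50 and 0.53 for Adamts10, 0.14 and 0.11 for Adamts18, 0.10 and 0.11 for Adamts9, 0.12 and 0.21 for Mmp16, -0.15 and -0.14 for Mmp2, 0.29 and 0.37 for Mmp28, 0.11 and 0.0814 for Timp2, and 1.04 and 1.01 for Timp3. Quantile normalization turned Adam1a to 0.11, Adamts18 to 0.0213 and Timp3 to 0.0736, and median ratio scaling turned Adam19 to 0.0194 and Timp3 to 0.00959. Leaving out 1 library at a time gave -0.18 to 0.43 for Adam10, -0.94 to 0.0882 for Adam12, -0.93 to 0.15 for Adam15, -0.41 to 0.24 for Adam19, -0.25 to 0.27 for Adam1a, -0.60 to 0.37 for Adamts1, -0.67 to 0.31 for Adamts10, -0.33 to 0.0171 for Adamts18, -1.09 to 0.21 for Adamts9, -0.13 to 0.33 for Mmp2 and -0.58 to 0.78 for Timp3. For these, the high end was the value without H3 in all but Mmp2, whose low end was the value without H4. Without C1, Adam1a (0.0409) and Timp3 (0.00203) also turned. The cause was not tested. The depth is unknown, so members listed at 0 may be below detection.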
